A study of Mus musculus with 16 samples.

Results

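The genes described here lie on both sides of Adrb1 on mouse chromosome 19 and were taken by position and by brightness in either group. They are the gene names of the array whose probes lie between 48000000 and 61340000 of chromosome 19 (build mm9), without Adrb1 itself, and of which at least 1 probe was well above background on 6 or more of the 8 arrays of either group. Of 148 gene names in that stretch, 95 had such a probe, out of 23060 gene names tested on the whole array, and each was read from its brightest such probe. Of them 50 carry a gene symbol, with 5830428H23Rik and Zfp950 sharing the same one but counted as separate members. The other 45 are 24 intervals of long non-coding RNA named by the array design, 11 other accessions and 10 probes with no name.

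Total RNA of bone marrow from 16 mice was measured on 1-colour arrays, 1 array per mouse. The 8 KO chimeras were C57BL/6J mice, lethally irradiated with 950 Rad, that were given marrow of a knockout strain by 1 retro-orbital injection; these donors carry targeted alleles, that of Adrb1 among them. The labels of all 16 mice, controls included, give a ratio of 1:4 of donor to C57BL/6J and a recovery of 2 to 3 months. The 8 controls carry the same C57BL/6J and irradiation labels but no named marrow source, so marrow genotype, donor strain and the graft itself cannot be told apart in this comparison. Both groups therefore share the C57BL/6J host, the irradiation and the labels of ratio and recovery. The labels do not state how many host cells remained in the marrow, how old the mice were or how many donors were used.

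Adrb1 encodes the beta 1 adrenergic receptor, which binds noradrenaline released by sympathetic nerves and couples to cyclic AMP signalling; such nerves reach the bone marrow. Targeted alleles are usually made in embryonic stem cells of one mouse strain and then bred into others, and the stretch of chromosome next to the targeted gene is inherited with it. The genes flanking a targeted locus are for that reason often looked at on their own in a knockout comparison. They have no common function: the stretch holds genes for a Wnt effector, lipid enzymes, membrane traffic proteins and a growth factor receptor chain. The stem cell strain is not given in the labels, and no genotype was measured.

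Level differences on these arrays rest on probes of 60 bases, so the probes behind the main results are shown, in lower case and 5′ to 3′ as the scanner files give them. The probe of an interval of long non-coding RNA at chr19:58223015-58223074 (plus strand) was above background on all control arrays and on 1 KO chimera array, while a neighbouring probe of the same interval, at chr19:58222715-58222774, was above background on all 16. The accession AJ833571 (chr19:61308617-61308676, minus strand) is described in the files as an immunoglobulin heavy chain variable region, whatever the position given for its probe.
interval, probe dim in KO chimeras: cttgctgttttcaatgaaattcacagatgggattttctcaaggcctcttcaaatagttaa
interval, neighbouring probe: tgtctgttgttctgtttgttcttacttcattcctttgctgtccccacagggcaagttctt
AJ833571: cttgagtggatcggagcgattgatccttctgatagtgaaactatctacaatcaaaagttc

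For probes that may lie outside the coding part of their gene, only the middle 30 bases (16 to 45 of the probe) are given. They belong to Hspa12a (chr19:58870521-58870580, minus strand), Ccdc172 (chr19:58627516-58627575, plus strand) and Fam45a (chr19:60912069-60912128, plus strand), which had among the largest or steadiest differences.
Hspa12a, middle: aaacaggagttcaaaatgcattattaaccg
Ccdc172, middle: ttgtacagtttctaaggggagagaaagaag
Fam45a, middle: actttgtttactggagctaacaactaatga

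Levels below are log2 of the processed signal over the 75th percentile of the same array, so 0 is the level of a probe at that percentile, and each probe is compared only with itself. A difference is the KO chimera mean minus the control mean on that log2 scale, given ± its SE from the fit. A gene was called where limma's Benjamini-Hochberg adjusted p, over all genes tested, was under 0.05. The 75th percentile of the signal was 127 to 545 in KO chimeras and 231 to 558 in controls, and 76 of the 95 members were above background on all 16 arrays. In bulk marrow, fewer cells of a type and less RNA per cell cannot be told apart.

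The members as a whole differed between groups about as often as genes elsewhere. Of the 95 members 23 were called, 24.2%, against 22.3% of all genes tested. The brightness rule admitted 12 members through 1 group alone, 3 of them called (Hspa12a, Pnlip and AJ833571), and such members were favoured to differ. Of the 83 that passed in both groups 20 were called, 24.1%, against 21.7% of all genes that did, a count added after seeing the data. Called higher in KO chimeras were 7 of the 95 members, against 10.2% of all genes tested. Called lower were 16 of the 95, against 12.1% of all genes tested. Over all genes, 2360 of the 5140 calls were higher and 2780 lower. The median difference was -0.065 over the members and -0.0193 over all genes, and the median absolute difference was 0.22 against 0.194. In 4 members, 4.21%, no KO chimera value overlapped a control value, against 6.14% of all genes. On the rest of chromosome 19, 136 of 631 genes were called, 21.6%. Over the chromosomes of the array the share called ran from 16.8% on chromosome 8 to 25.8% on chromosome 12.

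**Figure D1:**
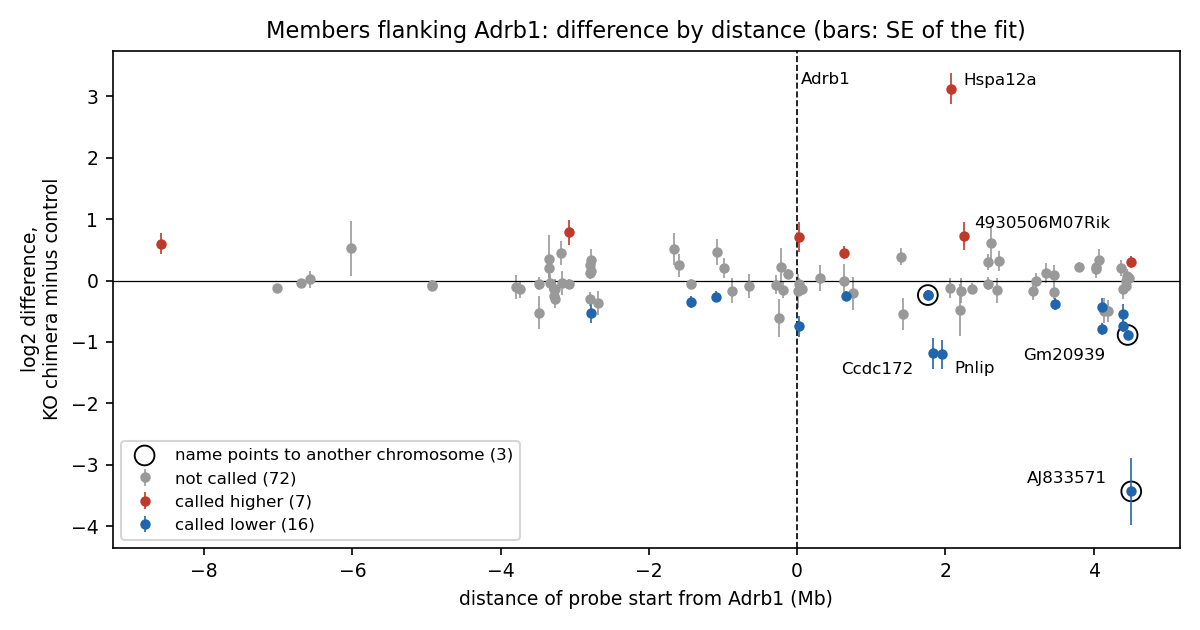
Log2 difference (KO chimera minus control, y axis) of each of the 95 members against the distance of its probe from Adrb1 in Mb (x axis; negative values lie before Adrb1); bars are the SE of the fit, red points were called higher (7), blue points lower (16) and grey points not called (72). Hspa12a and AJ833571 lie far from the rest, at fitted values of 3.12 and -3.43 that have only a bound since 1 group was not above background, and rings mark 3 members whose name points to another chromosome.

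The called members lay mostly after Adrb1, that is at higher coordinates. There 18 of 52 were called, 34.6%, and before Adrb1 5 of 43, 11.6%; the difference between the sides was not tested. Within 1 Mb on either side 4 of 18 members were called, 22.2%, and from 1 to 2 Mb 6 of 12, 50%. From 2 to 4 Mb it was 5 of 40, 12.5%, from 4 to 6 Mb 7 of 20, 35%, and beyond 6 Mb 1 of 5, 20%. The share therefore had no steady fall with distance, and the bins are small. Outside the stretch, bins of 1 Mb on chromosome 19 also lay on both sides of the 22.3% of all genes. From -46 to -45 Mb and from -23 to -22 Mb, 12 of 29 and 7 of 16 genes were called. From -48 to -47 Mb and from -50 to -49 Mb it was 4 of 37 and 5 of 36. Of the 95 members 25 lay within 2 kb of another, so neighbouring calls need not be separate genes. An example is 5830428H23Rik and a called interval of long non-coding RNA on the same strand. In the 1 Mb just before Adrb1 limma called 0 of 8 members, and 0 had an unadjusted p under 0.05. Apart from Fam204a, the called members after Adrb1 lay in 3 stretches, at 0.029 to 0.66 Mb, at 1.76 to 2.25 Mb and at 4.11 to 4.51 Mb.

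**Figure D2:**
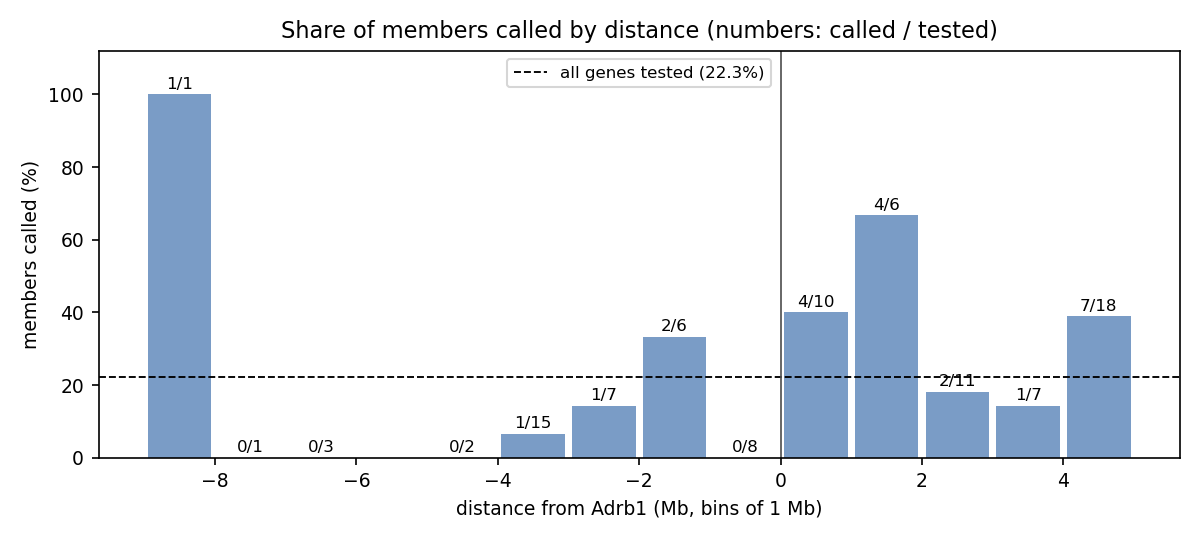
Percentage of members called (y axis) in bins of 1 Mb by distance from Adrb1 (x axis, Mb), with the number called and tested above each bar; the dashed line is the share over all genes tested, 22.3%. The bins from 0 to 1, from 1 to 2 and from 4 to 5 Mb after Adrb1 lie above the line, with 4 of 10, 4 of 6 and 7 of 18 members called; before Adrb1, 2 thinly filled bins do so, with 2 of 6 and 1 of 1. Positions are in doubt for Gm6570 and its adjoining probe, in the bin from 1 to 2 Mb after Adrb1. They are also in doubt for Gm20939 and AJ833571, in the bin from 4 to 5 Mb. Bins of chromosome 19 outside the stretch are not drawn, and some of them lie above the line too.

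For 3 of the called members the position itself is in doubt. The reference table of RefSeq genes (assembly GRCm38.p6, used for names only) places 48 of the 50 members with a symbol on chromosome 19. It places Gm6570 and Gm20939 on other chromosomes, and AJ833571 is described as an immunoglobulin sequence. Without these 3, 20 of 92 members were called, 21.7%, with 7 higher and 13 lower, and after Adrb1 15 of 49, 30.6%. These counts were chosen after seeing the data. An unnamed probe that adjoins the Gm6570 probe shares its doubt, and without it as well 19 of 91 members were called, 20.9%, and after Adrb1 14 of 48, 29.2%. The position of the other members without a symbol, called or not, was taken from the array files alone and was not checked. All members left out here were called, and uncalled members of doubtful position may remain, so these shares are not corrected ones.

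Hspa12a, a divergent member of the heat shock protein 70 family, was the member with the largest increase. Its log2 level ran from -7.39 to -5.83 in controls (median -6.67) and from -4.20 to -2.39 in KO chimeras (median -3.56). The highest control lay below the lowest KO chimera, and the gene was well above background on 6 KO chimera arrays and on no control array. Its level in controls is therefore only a bound, and it was at least 2.48-fold higher in KO chimeras. For that bound, each dim array was given its own reading of the probe or the faintest signal that still counted as well above background, whichever was larger, and the mean of these was set against the bright group's mean. The measured means were -3.52 ± 0.58 and -6.63 ± 0.51 (SD, n = 8 each; limma adjusted p = 9.78e-08), and the p was not independent of the brightness rule. As no values overlapped, Hspa12a was bound to be higher in KO chimeras on each of the 5 slides that held both groups.

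Pnlip and Ccdc172, which lie shortly before Hspa12a, were lower in KO chimeras. Pnlip, pancreatic triglyceride lipase, ran from -4.34 to -2.95 in controls (median -3.84) and from -5.70 to -4.29 in KO chimeras (median -5.04). The groups met at their edges only, where 2 KO chimeras lay just above the lowest control, and the gene was above background on all 8 control arrays but on 1 KO chimera array. The difference of -1.20 ± 0.24 is therefore approximate, and its p was not independent of the brightness rule (limma adjusted p = 0.00132). Ccdc172, which encodes a coiled-coil protein, ran from -1.67 to -0.83 in controls (median -1.22) and from -3.12 to -1.25 in KO chimeras (median -2.52), and 1 KO chimera lay among the controls. It was above background on all 16 arrays and fell by 1.18 ± 0.25 (limma adjusted p = 0.00242), with differences from -2.15 to -0.444 on the 5 slides that held both groups.

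The 3 other members whose groups did not overlap all lay more than 4 Mb after Adrb1 by the array's positions and were lower in KO chimeras. Fam45a, now Dennd10, a DENN domain protein of late endosomes, ran from 0.98 to 1.69 in controls (median 1.53) and from 0.50 to 0.89 in KO chimeras (median 0.70). The gap between the groups was narrow, and the difference was -0.79 ± 0.099 (limma adjusted p = 1.91e-05), 1.73-fold. 5830428H23Rik, now Zfp950, a zinc finger gene, ran from -1.11 to -0.87 in controls (median -0.97) and from -2.14 to -1.24 in KO chimeras (median -1.71). KO chimeras were spread more widely than controls, and the difference was -0.74 ± 0.10 (limma adjusted p = 5.48e-05). A dimmer probe that the array lists as Zfp950, less than 1 kb away by its position, differed by -0.14 ± 0.17 (limma adjusted p = 0.623).

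Gm20939, a predicted gene, differed by -0.89 ± 0.084 (limma adjusted p = 6.45e-07). It ran from -2.25 to -1.73 in controls (median -2.08) and from -3.18 to -2.73 in KO chimeras (median -2.97), so that every KO chimera lay well below every control. The reference table places this gene on another chromosome, as said above. AJ833571, the immunoglobulin sequence, ran from -5.33 to -1.23 in controls (median -2.17) and from -6.77 to -4.45 in KO chimeras (median -6.48). It was above background on 6 control arrays and no KO chimera array, the groups overlapped through 2 dim controls, and it was at least 3.34-fold lower in KO chimeras (limma adjusted p = 2.28e-04, again not independent of the brightness rule). The measured means were -2.63 ± 1.5 in controls and -6.06 ± 0.81 in KO chimeras (SD, n = 8 each).

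**Figure D3:**
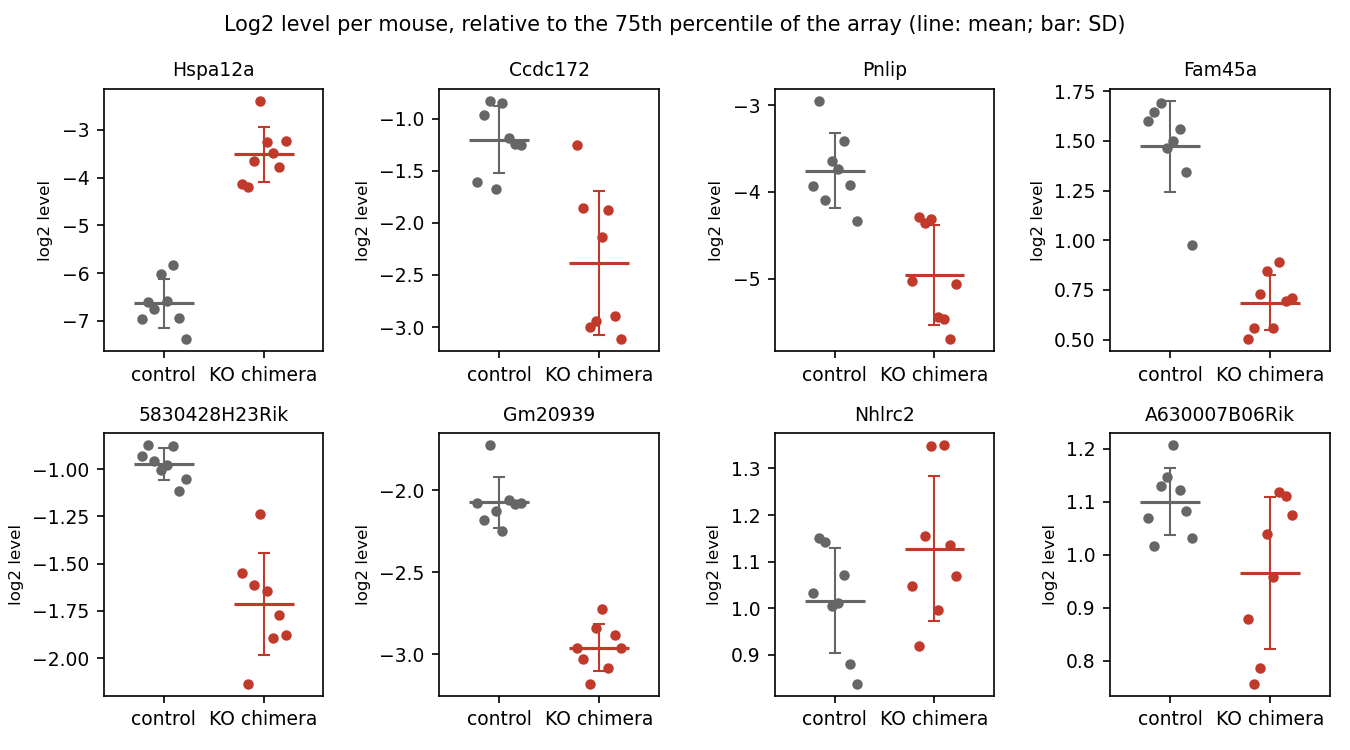
Log2 level per mouse (y axis, relative to the 75th percentile of the array, with its own scale in each panel) in 8 controls (grey) and 8 KO chimeras (red) for 6 called members and for Nhlrc2 and A630007B06Rik, which were not called and are the nearest gene symbols on either side of Adrb1; lines are means and bars SD. Hspa12a, Fam45a, 5830428H23Rik and Gm20939 show no overlap between groups, Pnlip and Ccdc172 a little, and the other 2 a broad overlap.

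The gene symbols nearest to Adrb1 differed little, while an interval and an unnamed probe that lay nearer still were called and are given further on. Before Adrb1, Nhlrc2 lay 0.127 Mb before Adrb1 and ran from 0.84 to 1.15 in controls (median 1.02) and from 0.92 to 1.35 in KO chimeras (median 1.1). Its groups overlapped broadly, and it differed by 0.11 ± 0.079 (limma adjusted p = 0.355). Of the next 5 symbols before Adrb1, among them Dclre1a (a nuclease that repairs DNA crosslinks), Plekhs1, Gm4470 and Tcf7l2 (a transcription factor of Wnt signalling), limma called 0, and 0 had an unadjusted p under 0.05. Dclre1a differed by -0.15 ± 0.13 and Tcf7l2 by 0.20 ± 0.16. Plekhs1 had the widest difference of these, -0.61 ± 0.31 (limma adjusted p = 0.178), and was above background on 2 KO chimera and 7 control arrays.

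After Adrb1, the nearest symbol was A630007B06Rik, now Ccdc186, a protein of dense-core vesicle formation, at 0.062 Mb. It ran from 1.02 to 1.21 in controls (median 1.1) and from 0.76 to 1.12 in KO chimeras (median 1.00), and differed by -0.14 ± 0.071 (limma adjusted p = 0.191). Ablim1, an actin-binding LIM protein, differed by 0.040 ± 0.22, and its 3 kept probes ran from -0.38 to 0.38 with none called. Trub1, a pseudouridine synthase, differed by -0.21 ± 0.27. Fam160b1, at 0.66 Mb, was the nearest symbol called: it ran from 3.38 to 3.66 in controls (median 3.63) and from 3.06 to 3.46 in KO chimeras (median 3.34). The groups overlapped at their edges, it fell by 0.25 ± 0.076 (limma adjusted p = 0.0244), and without control 6 its adjusted p was 0.0504. A second kept probe of Fam160b1 differed by -0.19 and was not called. Atrnl1, an attractin-like membrane protein, differed by 0.39 ± 0.14 and did not pass (limma adjusted p = 0.0617). Gm6570 followed, at 1.76 Mb by the array's position, and fell by 0.24 ± 0.079 (limma adjusted p = 0.0404), a call lost without KO chimera 1, 2, 3, 4 or 6 or control 1, 2, 3, 4 or 6. The unnamed probe that adjoins it differed by -0.24 ± 0.067 (limma adjusted p = 0.015).

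The members did not share a function, so they were also grouped by role. The lists were drawn up with earlier results of these data known, and their counts are descriptions beside the 22.3% of all genes. Of the 7 measured genes on the list for lipid, redox and mitochondrial metabolism, 0 rose and 3 fell (median -0.348). Besides Pnlip, which passed the brightness rule through the controls alone, these were Acsl5, a long-chain acyl-CoA synthetase, and Sfxn4, a mitochondrial sideroflexin. Acsl5 ran from 2.61 to 3.07 in controls (median 2.79) and from 2.00 to 2.71 in KO chimeras (median 2.52), overlapped between groups and fell by 0.35 ± 0.10 (limma adjusted p = 0.019). Sfxn4 fell by 0.43 ± 0.14 (limma adjusted p = 0.0324), with the call lost in 8 of 16 fits that left out 1 mouse (those without KO chimera 2, 3 or 6 or control 1, 2, 4, 5 or 7). Prdx3, a mitochondrial peroxidase, differed by -0.49 ± 0.20 and did not pass (limma adjusted p = 0.0969). Gpam went the other way, by 0.52 ± 0.26 (limma adjusted p = 0.179), as did Nhlrc2 by 0.11 ± 0.079. Xpnpep1, an aminopeptidase that the list also held, differed by -0.15 ± 0.14. None of these passed.

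Of 9 measured genes of membrane traffic and transport 0 rose and 2 fell, Fam45a and Vti1a, a SNARE protein of the Golgi and endosomes (median -0.0549). Vti1a fell by 0.26 ± 0.087 (limma adjusted p = 0.0391), a call that held in 5 of 16 fits with 1 mouse left out. It was lost without KO chimera 1, 2, 3 or 5 or control 1, 2, 3, 4, 5, 7 or 8, and the sign turned to 0.030 when the mean of its 2 kept probes was used. Pdzd8, which tethers organelle membranes, differed by 0.30 ± 0.13 and Bbip1, a subunit of the BBSome, by 0.25 ± 0.12, and neither passed (limma adjusted p = 0.096 and 0.172).

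Of 6 measured genes on the cytoskeletal list, which also held Plekhs1, 1 rose and 2 fell (median -0.151). The increase was that of 4930506M07Rik, now Shtn1, shootin 1, which links actin flow to adhesion sites. It ran from -1.41 to -0.35 in controls (median -0.74) and from -0.76 to 0.72 in KO chimeras (median 0.0035). The groups overlapped, and the difference was 0.73 ± 0.22 (limma adjusted p = 0.0263), with the call lost without KO chimera 1, 2 or 6 or control 4. The decreases were Ccdc172 and Fam160b1, and Add3, an adducin of the membrane skeleton, differed by -0.051 ± 0.11.

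Limma called 0 of the 7 measured genes of chromosome structure, DNA repair and RNA (median -0.0535; 1 at an unadjusted p under 0.05). It called 0 of the 6 of signalling and transcription (median 0.208; 3 at an unadjusted p under 0.05). Pdcd4, which restrains translation initiation, differed by -0.30 ± 0.11 (limma adjusted p = 0.0611), and Eif3a, a subunit of the initiation factor eIF3, by 0.22 ± 0.13 (limma adjusted p = 0.227). Smndc1, a splicing factor, and Nanos1, an RNA-binding protein, differed by 0.20 ± 0.14 and 0.18 ± 0.15. Dusp5, a phosphatase of nuclear ERK, differed by 0.45 ± 0.19 (limma adjusted p = 0.101). Shoc2, a scaffold of Ras signalling, differed by -0.36 ± 0.19, and Cacul1 by 0.22 ± 0.086 (limma adjusted p = 0.206 and 0.0812).

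The remaining called symbols lay more than 3 Mb after Adrb1. Fam204a ran from 0.24 to 0.52 in controls (median 0.36) and from -0.27 to 0.26 in KO chimeras (median 0.063). The groups touched at their edges, and it fell by 0.38 ± 0.097 (limma adjusted p = 0.00886). Csf2ra, the alpha chain of the GM-CSF receptor, which myeloid cells carry, ran from 6.44 to 6.88 in controls (median 6.57) and from 6.57 to 7.23 in KO chimeras (median 6.92). It was a very bright member and rose by 0.30 ± 0.10 (limma adjusted p = 0.0476), and 5 of 16 fits with 1 mouse left out kept the call. It was lost without KO chimera 1, 2, 5, 6 or 8 or control 1, 2, 3, 4, 6 or 7.

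Of the 45 members without a gene symbol 9 were called, 20%, against 21.4% of all genes without a symbol, with 4 higher and 5 lower. An interval of long non-coding RNA whose probe lies 0.030 Mb after Adrb1 (chr19:56829677-56829736, plus strand) fell by 0.75 ± 0.17 (limma adjusted p = 0.00441). It ran from -0.95 to -0.24 in controls (median -0.47) and from -2.23 to -0.76 in KO chimeras (median -1.20), and a dimmer probe of it differed by -0.48, also called. The interval named for the other strand at this place, read by probes within 1 kb, differed by -0.057 and 0.016 and was not called. An unnamed probe on the minus strand there (chr19:56828814-56828873) rose by 0.71 ± 0.24 (limma adjusted p = 0.0418), with the call kept in 6 of 16 fits with 1 mouse left out. It was lost without KO chimera 1, 2, 3 or 4 or control 1, 2, 3, 5, 6 or 8.

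Further from Adrb1, AW492981 (chr19:53724106-53724165, minus strand) rose by 0.79 ± 0.20 (limma adjusted p = 0.00944). Its values ran from -3.93 to -2.63 in controls (median -3.52) and from -3.49 to -2.07 in KO chimeras (median -2.51), with overlap.

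Probes of the same gene often disagreed in size. Of the 95 members 24 had 2 or more kept probes, 77 probes in all. With each probe tested on its own over all kept probes of the array, 23.5% of which were called, 1 of these members had every probe called one way, 8 had some and 15 none; in no member were probes called in opposite directions. Over the stretch as a whole 33 of 148 kept probes were called, 22.3%.

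The widest gap was in the interval of long non-coding RNA whose probes are shown above. Its brighter probe ran from -1.83 to -0.93 in 7 controls and from -3.28 to -1.20 in KO chimeras, and differed by -0.55 ± 0.26, not called (limma adjusted p = 0.148). The other probe, a little further on, ran from -2.32 to -1.0 in controls and from -6.52 to -4.27 in KO chimeras. No value overlapped there, and the probe was above background on 8 control arrays and 1 KO chimera array. It was kept through the controls alone, so its fitted difference of -4.11 ± 0.29 is approximate and its p was not independent of the brightness rule (limma adjusted p = 1.95e-08). Since the rule reads the brightest probe, this difference is not among the 23 calls.

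A second interval, more than 3 Mb before Adrb1, was read on the plus strand by 9 kept probes with differences from -1.71 to 0.057, of which 3 were called. Its brightest probe differed by -0.13 ± 0.11 and was not called, and the probe with -1.71 (chr19:53524238-53524297) was above background on all 16 arrays (limma adjusted p = 2.04e-04). Atrnl1 was not called through its brightest probe, and its other probe, at chr19:57806075-57806134, rose by 0.77 ± 0.18 (limma adjusted p = 0.00531). What the probes hybridise to was not tested.

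**Figure D4:**
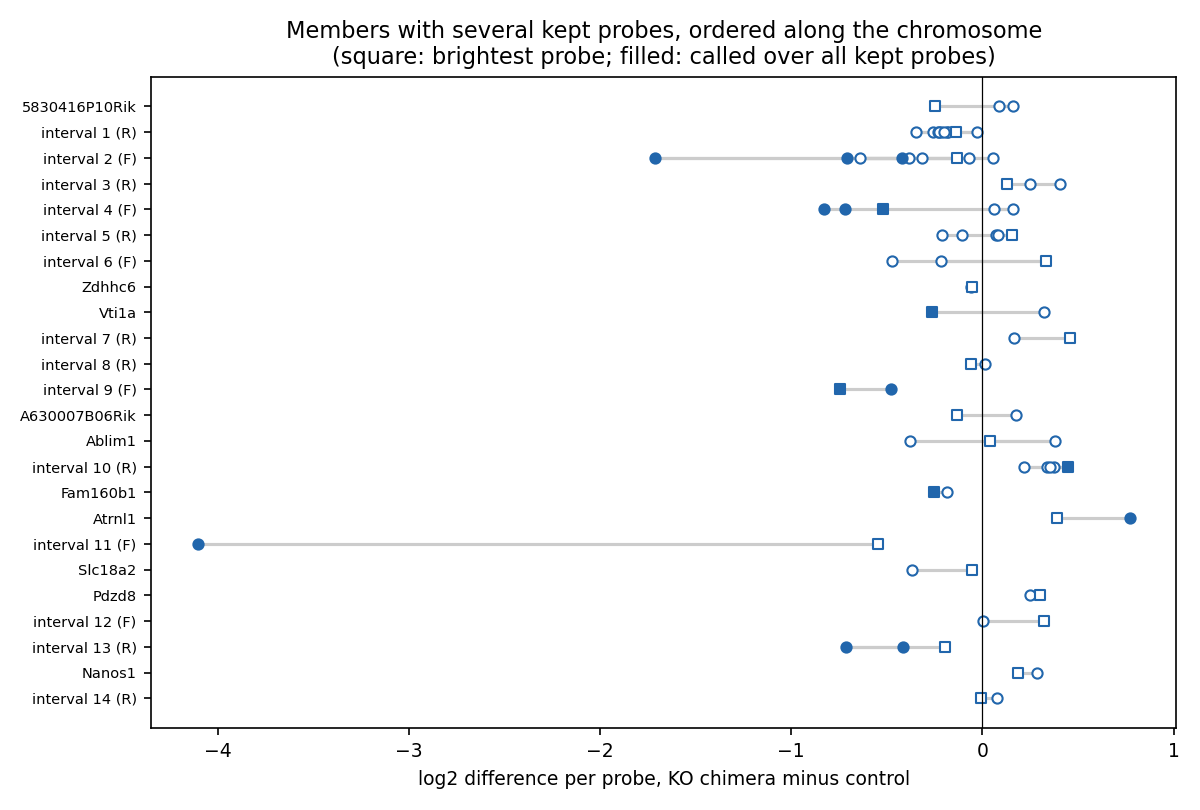
Log2 difference of each kept probe (x axis, KO chimera minus control) for the 24 members with 2 or more kept probes (y axis, ordered along the chromosome; intervals of long non-coding RNA are numbered in that order, with F or R for plus or minus strand). Squares are the brightest probe, which stands for the member, and filled symbols were called over all kept probes; 1 probe reaches -4.11 while the brightest probe of the same interval lies at -0.55.

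Adrb1 itself was read by 2 probes. That at chr19:56797242-56797301 differed by -0.00041 ± 0.11 and that at chr19:56799215-56799274 by 0.95 ± 0.30 (limma adjusted p = 0.999 and 0.0277, over all kept probes). Their position relative to the altered part of Adrb1 was not stated, so neither probe is a check of genotype.

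Of the 148 gene names in the stretch 53 had no kept probe and stay outside every count above. They include Adra2a, the alpha 2A adrenergic receptor, which was above background on 0 KO chimera and 1 control arrays, and Mxi1, Gfra1, Emx2, Habp2, Pnliprp1 and Pnliprp2. Just outside the brightness rule, Ins1 was above background on 5 arrays of each group. Just inside it lay Hspa12a and AJ833571.

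The 23 called members kept their direction on both scan days, on each of which 4 mice of each group were scanned. Of them 19 had the same direction on all 5 slides that held both groups, and 23 on 4 or more. The calls came from these same mice, so such agreement was favoured in advance and is no independent check. With slide as a block 17 of the 23 stayed called. The calls of Csf2ra, Vti1a, Fam160b1 and Gm6570 were lost (limma adjusted p = 0.0564, 0.0845, 0.074 and 0.0559), with the other 2 lost calls in members without a symbol. Fewer calls were made within a single scan day, 6 on the first day and 9 on the second, with 1612 and 2314 of all genes.

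The KO chimeras varied in how far they lay from controls. With 0 set at the control mean and 1 at the KO chimera mean, the median position over the 23 called members ran from 0.799 in KO chimera 4 to 1.26 in KO chimera 2. Over the 4 called members with an absolute difference above 1 it ran from 0.656 in KO chimera 2 to 1.29 in KO chimera 7, and KO chimera 4 lay at 1.24. Of these 4, Hspa12a, Pnlip and AJ833571 passed the brightness rule through 1 group alone. Pnlip and AJ833571 were above background on 1 and 0 KO chimera arrays, so the positions of KO chimeras there rest on dim readings. Over 1160 called genes elsewhere with an absolute difference above 1 the median position ran from 0.814 in KO chimera 7 to 1.1 in KO chimera 4.

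Marker lists for marrow cells moved with the groups in part, and their counts stand beside 10.2% of all genes called higher and 12.1% called lower. Of 5 megakaryocyte markers 3 were lower in KO chimeras (median difference -0.853), with a log2 summed level of 4.35 to 5.53 against 5.18 to 6.04 in controls. Of 4 T cell markers 2 were lower (median -0.83; 2.78 to 3.58 against 2.69 to 4.18). Limma called 0 of 7 neutrophil and 0 of 4 measured erythroid markers (0 and 0 at an unadjusted p under 0.05), with summed levels of 11.4 to 12.0 against 11.5 to 11.7 and of 5.34 to 8.11 against 5.96 to 7.69. Of 5 B lineage and 3 stromal markers 1 each was higher (5.47 to 6.64 against 5.18 to 6.63, and 4.19 to 4.46 against 3.65 to 4.49). Of 5 brain markers, listed as absent from marrow, Syt1 and Neurod1 had no kept probe, and 2 of the 3 others were lower (3.95 to 4.58 against 4.47 to 4.82). At an unadjusted limma p under 0.05 there were 4 megakaryocyte, 4 T cell, 3 B lineage, 1 stromal and 2 brain markers. The part of these cell types in the members' differences was not tested.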

How the data were processed

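Cy3-labelled marrow RNA of 16 mice was put on Agilent arrays of 1 colour, per the labels' protocols, and read with Feature Extraction (version 10.7 in the submitters' processing notes, 10.1.1.1 in the headers). Per the file headers, the scanner software subtracted background, and the deposited values used are linear spot intensity. The authors' deposited value table holds log2 values (59305 rows, lowest value 2.3, column correlation with the scanner signal at least 0.991). Its column medians were 4.99, 4.98, 5.00, 5.00, 5.00, 4.99, 4.99 and 5.00 for KO chimeras 1 to 8 and 5.00 for each control; its scale and direction follow from that match, and its centring is unknown. It served as an alternative.

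Each signal was scaled to the 75th percentile of its array before log2; outlier spots were dropped and spots of a probe averaged. Of 55681 probes 32693 were well above background on 6 or more arrays of either group; the brightest probe stood for each gene name, and names with fewer than 3 values in a group were left out. The fit used lmFit and eBayes of limma 3.58.1 (R 4.3.3), with two-sided p-values adjusted by Benjamini-Hochberg over 23060 genes. Fold bounds are described with the first one. Where limma is named, n = 8 mice per group.

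The members, role lists and tests were chosen with earlier results of these data known. Named genes were the called symbols, the 6 nearest symbols on each side of Adrb1, up to 4 of each role list by smallest p, and members without a symbol among the largest differences; further members without a symbol and probes that stood apart were named after their values were seen. Positions come from the array files (mm9); exons were not used here. Some items that these rules cover are not reported here. The test was tried on simulated data for this comparison over 22291 genes: it found 23 of 50 genes shifted by 0.5, 40 of 50 shifted by 1, 48 of 50 shifted by 2 and 41 of 50 shifted by -1. It made 5 false calls. Only these genes were shifted, a far smaller share than the 22.3% of genes called in the data, with independent normal noise and no slide effect. The counts found and the false calls are therefore not those of the real comparison.

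Replicate numbers did not pair the mice. Alternatives were other scalings, background correction, filters, the authors' values, slide, scan day and replicate number as terms, probe rules, array weights, a variance trend, each mouse left out, other reaches and another threshold. Array brightness as a covariate and leaving out doubtful positions or members bright in 1 group alone were added after seeing the data.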

Additional observations from a re-analysis of the deposited data

Results flagged for a closer look

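Among 70 groups of 8 values, for 35 named members, 5 had 1 mouse that stood apart from the other 7 by Dixon's test at the 95% level, where chance flags about 1 group in 20. In controls, Gm20939 was highest in control 3 (-1.73, with the nearest control at -2.06), and Eif3a was lowest in control 8 (1.90, nearest 2.49). In KO chimeras, Acsl5 was lowest in KO chimera 2 (2.00, nearest 2.40). KO chimera 4 stood apart in both remaining cases: Tcf7l2 was lowest there (-1.41, nearest -0.76) and Smndc1 highest (1.36, nearest 0.63). Of these genes Gm20939 and Acsl5 were called, and both kept the call in all 16 fits that left out 1 mouse.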

How the results depend on the processing

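All 23 called members kept their direction under every alternative that measured them, except Vti1a, whose difference turned to 0.030 (limma adjusted p = 0.892) with the mean of its kept probes. The alternatives reuse the mice that gave the calls, which favoured such agreement. The count of 23 members moved to 6 (1 higher, 5 lower; all genes 1612) within scan day 1 and 9 (4 higher, 5 lower; 2314) within scan day 2, each with 4 mice a group. At an adjusted p under 0.01 it was 11 (3 higher, 8 lower; 2997). It was 10 of 30 within 2 Mb of Adrb1 and 15 of 70 within 4 Mb. A test per probe called 25 lower. With 1 mouse left out, 17 to 25 members were called (4 to 9 higher, 12 to 16 lower), and 4392 to 5325 of all genes; 15 of the 23 stayed called in all 16 such fits. With slide as a block 19 were called, 17 of them among the 23, and with array brightness as a covariate also 19. Same-numbered mice did not deviate together (r from -0.195 to 0.198, 2 of 8 pairs over 0.1), and with the replicate block 16 members were called (4 higher, 12 lower) and 4726 of all genes. The share called ran from 0% to 18.6% before Adrb1 and from 11.5% to 40.4% after it over these settings, and was larger after it in each. The settings reuse the same mice and largely the same members, so this agreement was favoured in advance too and is no independent check. The number of mice limits precision, and calls on dim probes rest on few arrays above background.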
